A study of Mus musculus with 6 samples.

Results

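The genes described here are 32 genes that carry glucose carbon from the blood into the mitochondrion. They encode the glucose transporters, the enzymes of glycolysis, lactate dehydrogenase, the monocarboxylate transporters that move lactate and pyruvate, and the entry point of pyruvate into the tricarboxylic acid cycle. They were chosen by name, and all 32 were found among the 27514 genes that the 3 pool matrices share. UMI counts per gene, where a UMI marks 1 captured RNA molecule, were measured in single nuclei of mouse hypothalamus sorted for NeuN, a neuronal nuclear protein. The chow pool came from mice fed chow, and the DIO pool from mice made obese by a high-fat diet. The OB pool came from chow-fed ob/ob mice, which lack functional leptin. Each pool mixed nuclei from rapamycin-treated and vehicle-treated animals, told apart by 2 antibody hashtags, and rapamycin blocks the kinase complex mTORC1. Neither the number of mice behind a hashtag nor their age, sex, strain, dose or length of treatment is given in the sources used here, and each hashtag of a pool counts as 1 sample.

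Glycolysis splits glucose into pyruvate in the cytosol, and pyruvate is then either reduced to lactate or imported into mitochondria and oxidised by the pyruvate dehydrogenase complex. Several steps are served by isoforms that differ between cell types. In brain, astrocytes are known for storing glycogen and for releasing lactate, and neurons for taking up glucose and lactate and oxidising pyruvate. Hypothalamic neurons also use glucose metabolism as a signal of energy state.

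The chow and DIO pools held 10853 and 11405 nuclei, with medians of 5826 and 5572 UMIs, and the OB pool held 12284 at a median of 2804.5. Hashtag calls left 191, 406 and 3731 nuclei without a treatment, so the OB pool lost the most. The sums over all neurons held between 29101562 and 33640855 UMIs in chow and DIO. They held 15120885 (rapamycin) and 5749804 (vehicle) in OB, which is the thinnest sum and the one most affected by how hashtags were called. Astrocyte sums were far smaller, from 255315 to 613340 UMIs on 99 to 366 nuclei. Barcodes shared by pairs of pools numbered 31, 38 and 33. Levels are given as UMIs of a gene scaled to a fixed total of UMIs in each sum (CPM), and they are compared between sums for a gene, never between genes, since gene length was not taken into account.

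Neurons and astrocytes were set by marker UMIs that include none of the 32 genes. In astrocytes, 12 astrocyte markers together stood at 7645 CPM, against 41.4 in neurons. The 7 neuronal markers stood at 4209 CPM in neurons and at 360.0 in astrocytes, which is 8.55% of the neuronal level. All 7 neuronal markers were detected in astrocytes, and the share of free neuronal RNA or of mixed droplets in the values below was not tested. NeuN sorting should deplete astrocytes, so those described here are the ones that passed the sort.

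The genes whose promoters are shown are the 4 that stood highest in astrocytes over neurons and the 2 lowest for which the RefSeq promoter table (GRCm38.p6) has an entry. Each line gives the 150 bases before the annotated start, on the gene's strand, 5′ to 3′. Capitals mark the letters ACGTG or their reverse complement CACGT, a form of the core motif that hypoxia-inducible factors bind. The form GCGTG and its reverse complement were neither marked nor counted.
Pdk4: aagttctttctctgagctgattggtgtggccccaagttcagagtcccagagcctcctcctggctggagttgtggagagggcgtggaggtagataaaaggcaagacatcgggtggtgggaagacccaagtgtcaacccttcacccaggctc
Aldoc: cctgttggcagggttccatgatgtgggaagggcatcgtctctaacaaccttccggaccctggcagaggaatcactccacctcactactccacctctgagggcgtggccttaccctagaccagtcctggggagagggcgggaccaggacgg
Hk2: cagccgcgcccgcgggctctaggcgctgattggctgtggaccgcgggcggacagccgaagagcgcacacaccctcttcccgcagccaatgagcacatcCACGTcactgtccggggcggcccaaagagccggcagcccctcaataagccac
Slc2a1: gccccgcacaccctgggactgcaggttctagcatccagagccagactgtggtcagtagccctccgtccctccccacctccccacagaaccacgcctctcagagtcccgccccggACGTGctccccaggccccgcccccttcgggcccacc
Eno2: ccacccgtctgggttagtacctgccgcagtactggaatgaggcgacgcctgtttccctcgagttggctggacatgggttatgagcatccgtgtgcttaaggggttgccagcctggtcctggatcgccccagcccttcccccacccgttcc
Pdk3: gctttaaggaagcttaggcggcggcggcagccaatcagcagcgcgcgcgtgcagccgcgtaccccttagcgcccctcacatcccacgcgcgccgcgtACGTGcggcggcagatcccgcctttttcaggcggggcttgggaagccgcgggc

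These windows lie at chr6:5496279-5496428 (minus strand) for Pdk4, chr11:78322923-78323072 (plus) for Aldoc and chr6:82774455-82774604 (minus) for Hk2. They lie at chr4:119108595-119108744 (plus) for Slc2a1, chr6:124769674-124769823 (minus) for Eno2 and chrX:93832151-93832300 (minus) for Pdk3. Hk2, Slc2a1 and Pdk3 hold the letters once and the other 3 do not. Of the 32 genes, 30 have an entry, all but Slc2a3 and Slc16a7. Within 250 bases before any listed start, the letters occur on either strand in 14 of the 30 (46.7%) and in 18.5% of the 27025 genes of the table. Among the genes higher in astrocytes (below), 10 of 16 hold them (Hk2, Pfkm, Aldoa, Pgk1, Pgam1, Pkm, Slc2a1, Slc16a1, Pdk2 and Pfkfb3), and among those lower 1 of 4 does (Pdk3). A match describes letters only and says nothing about binding in these cells.

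Astrocytes were first compared with neurons, since the question of which cells carry which isoform comes before any effect of diet or drug. Of the 32 genes, 16 were higher and 6 lower in astrocytes by edgeR's quasi-likelihood test at a Benjamini-Hochberg adjusted p of at most 0.05, with the 2 sums of each hashtag as a pair (6 pairs). Over the 13419 genes tested, 24.4% were higher and 29.4% lower, and the median log2 fold change was -0.09 against 0.66 for the 32 genes. All 6 astrocyte sums lay above all 6 neuron sums for 11 of the genes (16.4% of all genes tested) and below them for 5 (21.4%). The 2 hashtags of a pool share a library, and with 1 pair per pool the counts were again 16 and 6. The OB pool held the most astrocytes, and without it 14 genes were higher and 6 lower. Markers of tanycytes and ependymal cells (5 genes) stood at 217.9 CPM in the astrocyte sums and 82.5 in neurons. Those of oligodendrocytes (7) stood at 149.9 and 62.8, of endothelial cells (5, of which 4 were detected in astrocytes) at 15.7 and 6.53, and of pericytes (4, of which 1 was detected in astrocytes) at 81.4 and 4.11. The part of these cells in the results was not tested. In simulated data with 2-fold changes, this test recovered 67.2% of them. Those data had a small fixed spread, no differences between pools, and changes only in genes above a minimum of UMIs.

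**Figure D1:**
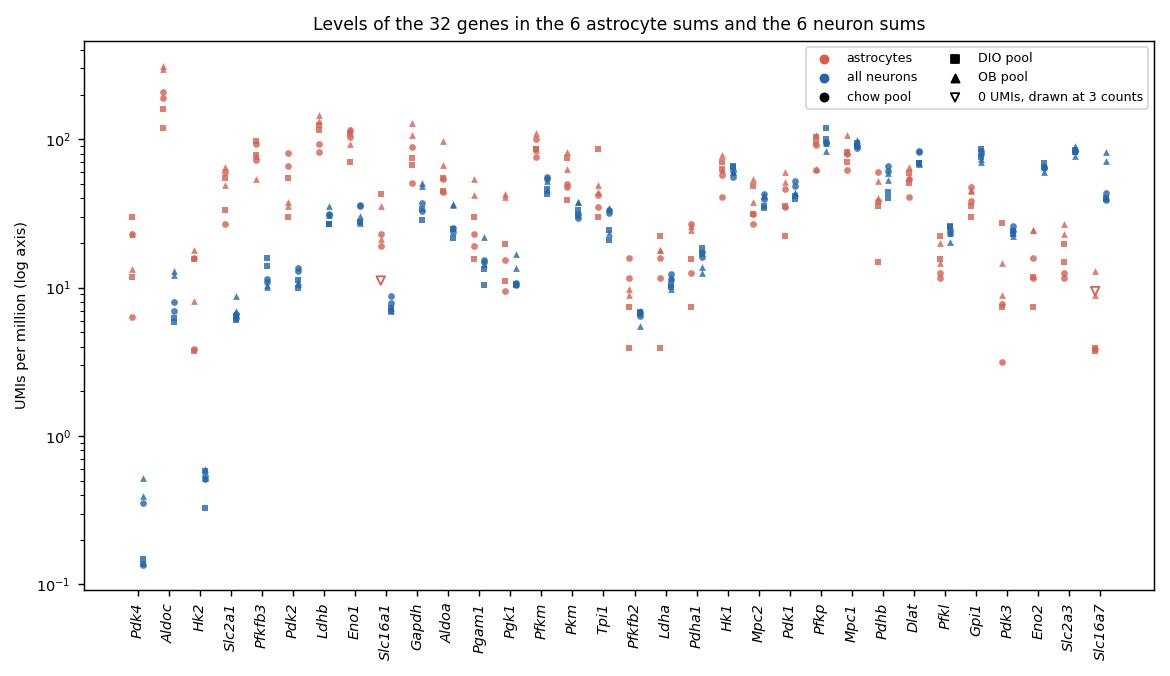
Level of each gene (CPM, log axis) in the 6 astrocyte sums (red) and the 6 neuron sums (blue), ordered by fold change, with the pool as the marker shape and open triangles for 0 UMIs drawn at 3 counts. Genes at the left, from Pdk4 and Aldoc to Ldhb and Eno1, lie clearly higher in astrocytes, and Eno2, Slc2a3 and Slc16a7 at the right lie lower.

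Glucose enters brain cells through facilitative transporters, of which Slc2a1 (GLUT1) is the carrier of the blood-brain barrier and glia and Slc2a3 (GLUT3) the neuronal carrier. Slc2a1 ranged over 27.0, 51.9 and 64.8 CPM (lowest, median and highest of 6 sums) in astrocytes and over 6.05, 6.56 and 8.73 in neurons. Slc2a3 went the other way, with 11.6, 17.2 and 26.8 CPM in astrocytes and 77.2, 82.9 and 90.1 in neurons. Neither pair of ranges overlaps. The log2 fold changes were 2.80 ± 0.24 (SE; adjusted p = 7.95e-10, edgeR) and -2.13 ± 0.19 (adjusted p = 1.49e-09).

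Hexokinase traps glucose in the cell, and phosphofructokinase commits it to glycolysis. Hk1, the hexokinase of neurons and most brain cells, did not pass the test, at a median of 62.3 CPM in astrocytes and 60.5 in neurons (log2 fold change 0.03 ± 0.14). Hk2, the inducible hexokinase, ranged over 3.72, 11.9 and 17.9 CPM in astrocytes and over 0.327, 0.531 and 0.595 in neurons. Every astrocyte sum exceeded every neuron sum, with a log2 fold change of 4.29 ± 0.46 (adjusted p = 4.22e-08, edgeR). Pfkfb3, which makes fructose 2,6-bisphosphate and so activates phosphofructokinase, ranged over 53.6, 77.5 and 96.7 CPM in astrocytes and over 10.1, 11.2 and 15.9 in neurons. It rose by 2.70 ± 0.18 on the log2 scale (adjusted p = 1.2e-11, edgeR), whereas Pfkfb2, another isoform of that enzyme, did not pass the test (0.59 ± 0.37, adjusted p = 0.191).

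The phosphofructokinase subunits divided as well. Pfkm, the muscle-type subunit, rose to 75.8, 85.9 and 109.5 CPM in astrocytes from 42.7, 49.1 and 55.9 in neurons (log2 0.87 ± 0.13, adjusted p = 7.08e-06, edgeR), with no overlap. Pfkp, the platelet-type subunit, did not pass the test, at 61.6, 92.8 and 107.6 CPM in astrocytes and 83.5, 95.3 and 118 in neurons (-0.15 ± 0.13). The liver-type subunit Pfkl gave -0.54 ± 0.24 (adjusted p = 0.0653, edgeR), and it passed with DESeq2 size factors (adjusted p = 0.0488), without a filter and under the stricter marker rule. Gpi1, which converts glucose 6-phosphate to fructose 6-phosphate, was lower in astrocytes, at 29.8, 41.6 and 47.4 CPM against 70.0, 78.1 and 85.7 (-0.90 ± 0.16, adjusted p = 3.36e-05).

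From aldolase to pyruvate kinase, 8 of 9 genes were higher in astrocytes and 1 was lower. Aldoc, the brain aldolase and a known astrocyte gene, ranged over 119, 199 and 313 CPM in astrocytes and over 5.84, 7.46 and 13.0 in neurons (log2 4.62 ± 0.13, adjusted p = 2.72e-18, edgeR). Aldoa, the muscle-type aldolase, rose by 1.11 ± 0.16 to a median of 54.4 CPM from 25.1, again with no overlap. The enolases showed the opposite pair. Eno1, the ubiquitous enolase, stood at 70.5, 106 and 116 CPM in astrocytes and at 27.1, 29.3 and 36.1 in neurons (1.72 ± 0.14, adjusted p = 4.08e-10). Eno2, the neuron-specific enolase, stood at 7.44, 13.8 and 24.6 CPM in astrocytes and at 60.5, 65.2 and 69.0 in neurons (-1.87 ± 0.21, adjusted p = 1.08e-07).

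Of the remaining genes of this stretch, Pkm, whose product makes pyruvate, rose by 0.84 ± 0.17 with no overlap, from a median of 32.4 CPM in neurons to 56.3. Gapdh, the first energy-yielding step, rose by 1.15 ± 0.14 (median 81.5 against 35.5 CPM) and Tpi1, triose phosphate isomerase, by 0.74 ± 0.22 (43.2 against 28.1), and for both the highest neuron sum passed the lowest astrocyte sum. Pgk1 and Pgam1, phosphoglycerate kinase and mutase, rose by 0.95 ± 0.27 and 1.04 ± 0.24, but the OB pool decided both calls. Without it they stood at 0.30 (adjusted p = 0.645, edgeR) and 0.62 (adjusted p = 0.198), and under the stricter marker rule Pgk1 stood at 0.55 (adjusted p = 0.136). Several of these housekeeping genes have near-identical pseudogene copies, and how the authors' counting divided such reads is not given in the sources used here, so their levels carry that uncertainty.

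Lactate dehydrogenase is a tetramer of A and B subunits, and the B subunit is the one typical of oxidative tissue. Ldhb ranged over 82.1, 120.3 and 145 CPM in astrocytes and over 26.8, 30.9 and 35.7 in neurons. Its ranges do not overlap, and the log2 fold change was 1.92 ± 0.14 (adjusted p = 5.74e-11, edgeR). Ldha did not pass the test (0.49 ± 0.30, adjusted p = 0.181), with a median of 16.8 CPM in astrocytes and a range of 9.74 to 12.4 in neurons.

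Lactate and pyruvate cross membranes through monocarboxylate transporters. Slc16a1 (MCT1), found in glia and endothelium, stood at 0, 22.2 and 43.1 CPM in astrocytes and at 6.93, 7.30 and 8.80 in neurons (1.63 ± 0.34, adjusted p = 0.000349, edgeR). The value of 0 came from the DIO rapamycin astrocytes, where 0 UMIs allow up to 11.2 CPM when the limit is set at 3 counts. Slc16a7 (MCT2), a high-affinity carrier known from neurons, stood at 0, 3.88 and 13.0 CPM in astrocytes and at 38.7, 41.8 and 81.8 in neurons (-3.10 ± 0.28, adjusted p = 1.72e-09), with no overlap. Its 0 came from the chow rapamycin astrocytes, where the same limit is 9.48 CPM.

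Pyruvate enters mitochondria through a carrier of 2 subunits and is oxidised by pyruvate dehydrogenase, which the Pdk kinases switch off. Of the kinases, Pdk4 and Pdk2 were higher in astrocytes, Pdk3 was lower and Pdk1 did not pass the test. Pdk4, the fasting-induced kinase, ranged over 6.32, 18.1 and 29.8 CPM in astrocytes and over 0.135, 0.250 and 0.522 in neurons (6.09 ± 0.45, adjusted p = 7.97e-11, edgeR). Pdk2 ranged over 29.8, 46.2 and 80.9 CPM in astrocytes and from 10.0 to 13.6 in neurons (2.09 ± 0.22, adjusted p = 2.43e-08), and neither kinase's ranges overlap.

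Pdk3 fell by 1.04 on the log2 scale in astrocytes (SE 0.31, adjusted p = 0.0062, edgeR), from a median of 23.6 CPM to 8.32. Its ranges overlap, and without the chow pool it stood at -0.76 (adjusted p = 0.0626). Dlat, the E2 subunit of pyruvate dehydrogenase, stood at 41.1, 54.7 and 64.8 CPM in astrocytes and at 68.5, 69.2 and 82.7 in neurons (-0.41 ± 0.15, adjusted p = 0.0219). Without the chow pool Dlat gave -0.28 (adjusted p = 0.174), and without the DIO pool -0.39 (adjusted p = 0.0717). The E1 subunits Pdha1 (0.36 ± 0.28) and Pdhb (-0.38 ± 0.18) and the carrier subunits Mpc1 (-0.18 ± 0.13) and Mpc2 (0.00 ± 0.18) did not pass the test. Mpc1 ranged over 61.6, 80.4 and 107.6 CPM in astrocytes and over 87.4, 92.5 and 99.5 in neurons, with the neuron range inside the astrocyte range.

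The neighbouring pathways were read from 9 lists of genes, chosen with earlier results of these data known. Their counts are to be read beside the shares of all genes tested, given above for astrocytes against neurons. Of 14 glycogen genes, 10 rose in astrocytes and 1 fell, with a median log2 fold change of 1.71. They included Ppp1r3c at 6.54, which targets a phosphatase to glycogen, Phkg1 at 5.80, a catalytic subunit of phosphorylase kinase, and the phosphorylases Pygm at 3.63 and Pygb at 2.41. Of 14 tested genes of hypoxia-inducible factors and their targets, 7 rose and 1 fell, among them Epas1 at 6.31 and the growth factor Vegfa at 2.76. The other routes of pyruvate were mixed, with 3 of 10 higher and 4 lower. Pcx, the glial pyruvate carboxylase, rose by 3.003, and the malic enzyme Me3 gave -2.43 and the pyruvate dehydrogenase phosphatase Pdp1 -1.87.

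NADH shuttles had 2 of 10 higher and 3 lower, with the glycerol phosphate dehydrogenase Gpd2 at 2.50 and the aspartate carrier Slc25a13 at -1.46. Other glycolytic isoforms had 4 of 11 higher and 2 lower, with Pgm2l1, which makes a cofactor of phosphoglucomutase, at -2.31. Fuel sensing genes had 4 of 10 higher and 2 lower, with the carbohydrate response factor Mlxipl at 4.999 and the sulfonylurea receptor Abcc8 at -3.92. Other transporters had 3 of 9 higher and 2 lower, the pentose phosphate pathway 1 of 7 higher and 1 lower, and the tricarboxylic acid cycle 4 of 16 higher and 1 lower, with citrate synthase (Cs) at 1.35.

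Glutamatergic and GABAergic neurons, set by their transmitter genes, were then compared within each hashtag. None of the 30 genes that passed the filter differed at an adjusted p of at most 0.05 by edgeR, where 16.8% of the 13428 genes tested did (9.29% higher and 7.48% lower in glutamatergic neurons). At an unadjusted p under 0.05 there were 5, and DESeq2 called 0. Hk2 and Pdk4 did not pass the filter on low counts. The fold changes of the 30 lay between -0.28 (Pdk2) and 0.30 (Pfkfb3), with a median SE of 0.08, against differences from -3.10 to 6.09 between astrocytes and neurons.

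Pfkfb3 ranged over 3.86, 13.9 and 19.0 CPM in glutamatergic neurons and over 8.91, 10.0 and 15.0 in GABAergic neurons (0.30 ± 0.13, adjusted p = 0.117, edgeR). Pdk2 ranged over 5.79, 9.45 and 14.9 CPM and over 9.86, 13.9 and 15.5 (-0.28 ± 0.13, adjusted p = 0.172). Both pairs of ranges overlap. Single alternatives called 1 gene each, Gpi1 at -0.17 without the OB pool (adjusted p = 0.017) and Pdk3 at 0.25 with hashtags called by a ratio (adjusted p = 0.05). In the neighbouring lists, Suclg2, a subunit of succinyl-CoA ligase, was higher in glutamatergic neurons at 0.79 ± 0.10 and Vegfa at 0.74 ± 0.13, while Phka2, a regulatory subunit of phosphorylase kinase, was lower at -0.32 ± 0.06.

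Neurons known by a peptide or by histamine synthesis were described next. These sums hold few nuclei and 1 value per pool, so they are described with counting intervals and without a test. A gene is counted where it stood at least 1.2-fold away from all other neurons, in the same direction, in each of the 3 pools. It counts as measured with at least 50 UMIs in the class itself over the 3 pools. Genes low in a class can thus drop out and genes high in it pass more easily, which also holds for the shares of all genes. In histaminergic neurons (54 to 114 nuclei per pool, both hashtags and uncalled nuclei), 3 of 17 measured genes were higher and 1 was lower, where 16.6% and 12.2% of all measured genes were. In Pmch neurons, which make melanin-concentrating hormone, 1 of 8 was higher (9.8% of all) and 1 lower (11.5%). In Avp and Oxt neurons, which make vasopressin and oxytocin, 1 of 15 was higher (11.5%) and 2 were lower (10.0%). In Hcrt neurons, which make orexin, 0 of 3 measured genes passed in all 3 pools (15.8% and 9.65%).

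These counts lie near the shares of all genes. Pfkp was counted in 3 of the 4 classes. In Pmch neurons of the chow pool it stood at 235 CPM (95% interval 195 to 281) against 93.9 in other neurons. The DIO pool gave 278 (238 to 322) against 107, and the OB pool 219 (129.7 to 346) against 90.7. The log2 ratios were 1.33, 1.38 and 1.27. In histaminergic neurons it stood at 160.1 CPM (130.2 to 195), 207 (179.9 to 236) and 215 (162 to 280.5), with ratios of 0.76, 0.95 and 1.26. In Avp and Oxt neurons it was lower, at 70.9, 80.3 and 61.8 CPM (ratios -0.43, -0.44 and -0.57, the last with an interval of -1.22 to 0.01). In Hcrt neurons it stood at 43.0 CPM in chow (ratio -1.15), 54.8 in DIO (-0.99) and 92.1 in OB (0.01), the last on 9 UMIs. It was thus above other neurons in Pmch and histaminergic neurons of every pool, and below them in Avp and Oxt neurons of every pool.

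**Figure D2:**
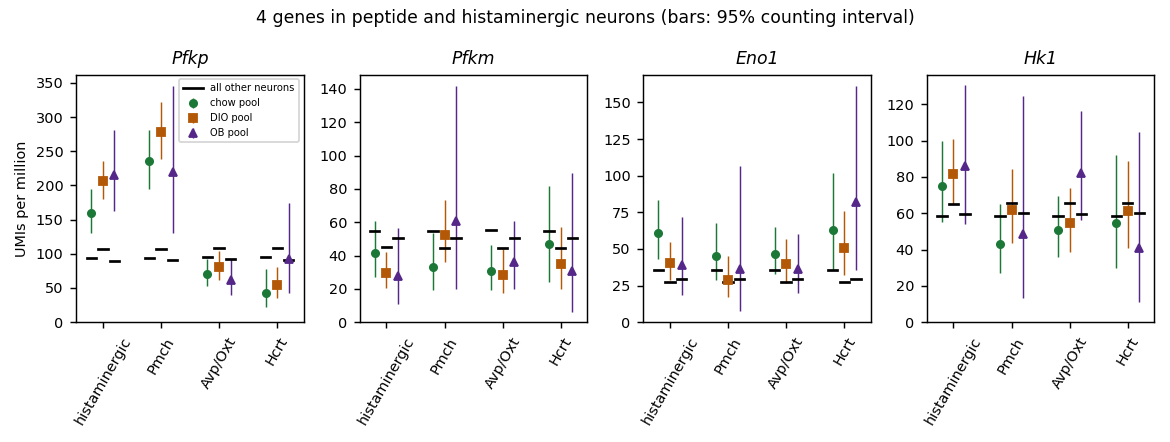
Level (CPM) of Pfkp, Pfkm, Eno1 and Hk1 in histaminergic, Pmch, Avp and Oxt, and Hcrt neurons of each pool, with exact 95% counting intervals as bars and short black lines for all other neurons of the same pool. Pfkp lies above the lines in histaminergic and Pmch neurons of all 3 pools.

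Pfkm was lower in histaminergic neurons (ratios -0.40, -0.59 and -0.88 in chow, DIO and OB) and in Avp and Oxt neurons (-0.84, -0.65 and -0.49). The interval excludes 0 in DIO for histaminergic neurons, and in chow and DIO for Avp and Oxt neurons. Eno1 was higher in histaminergic neurons (0.77, 0.55 and 0.41, the last with an interval that includes 0). It gave 0.39, 0.52 and 0.29 in Avp and Oxt neurons, all with intervals that include 0. In Hcrt neurons it gave 0.81, 0.87 and 1.48, on 8 to 23 UMIs, with intervals that exclude 0 in DIO and OB. Hk1 was higher in histaminergic neurons (0.37, 0.33 and 0.53), with intervals that include 0 in all 3 pools. Dlat was lower in Pmch neurons (-0.54, -0.41 and -2.50), the last on 1 UMI.

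Rapamycin was compared with vehicle across the 3 pools, with the pool as a block, because mTORC1 is known to raise the expression of glycolytic enzymes through hypoxia-inducible factor. None of the 32 genes differed in all neurons by edgeR's quasi-likelihood test, where 0.196% of the 17341 genes tested did (0.0404% higher and 0.156% lower). None of 30 differed in GABAergic neurons, where 0.0% of 14595 genes did, and none of 30 in glutamatergic neurons, where 0.0446% of 13456 did (0.00743% higher and 0.0372% lower). At an unadjusted p under 0.05 there were 2, 0 and 1 genes, and DESeq2 called 0 in each. The pools stand in for replicates here, so a response that differs between chow, DIO and OB mice counts as spread. In the simulated data with 2-fold changes, the test in all neurons recovered 97.0% of them. Those data hold no differences between pools and no smaller changes, so this share does not give the power to find a rapamycin effect here.

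The genes with the lowest unadjusted p in all neurons were Pgam1 and Tpi1. In the chow pool Pgam1 stood at 14.8 CPM with rapamycin and 15.3 with vehicle. The DIO pool gave 13.4 and 10.4, and the OB pool 21.96 and 14.4. It was flat in chow and higher with rapamycin in the other 2 pools, and the fitted log2 fold change was 0.25 ± 0.10 (adjusted p = 0.661, edgeR). Tpi1 had the same pattern, at 31.8 against 33.4 CPM (chow), 24.4 against 21.0 (DIO) and 34.4 against 23.5 (OB), with rapamycin first (0.17 ± 0.08, adjusted p = 0.896). The lowest fitted value in all neurons was that of Pdk4 (-0.64 ± 0.55), on 3 to 11 UMIs per sum. In glutamatergic neurons the gene with an unadjusted p under 0.05 was Pdk1, which was lower with rapamycin in 3 of 3 pools. It stood at 44.9 against 54.0 CPM (chow), 36.7 against 42.4 (DIO) and 33.3 against 50.2 (OB). The fitted value was -0.28 ± 0.13 (adjusted p = 0.999, edgeR). In these neurons 22.5% of 5357 genes kept their direction in all 3 pools, among them Pdhb and Mpc1, both lower. The lowest and highest fitted values there were those of Slc16a1 (-0.39 ± 0.27) and Tpi1 (0.24 ± 0.15), and in GABAergic neurons those of Pdk3 (-0.14 ± 0.12) and Pgam1 (0.26 ± 0.16).

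Of the neighbouring lists, 1 gene passed in all neurons. Bsg encodes basigin, the chaperone that carries the monocarboxylate transporters MCT1 and MCT4 to the cell surface. In the chow pool Bsg stood at 20.3 CPM with rapamycin and 19.1 with vehicle. The DIO pool gave 28.4 and 19.2, and the OB pool 33.8 and 25.7. It was higher in 3 of 3 pools, and in chow by less than the counting error (log2 ratio 0.09, 95% interval -0.08 to 0.26). The fitted log2 fold change was 0.35 ± 0.08 (adjusted p = 0.0293, edgeR). The call was lost with DESeq2 (0.35, adjusted p = 1), without the DIO pool (0.22, adjusted p = 1) and without the OB pool (0.34, adjusted p = 0.2), and it held with hashtags called by a ratio (0.39, adjusted p = 0.00453). Slc16a1, which encodes MCT1, was not called, and neither was Slc16a7, which encodes MCT2.

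Within the pools, each ratio compares 1 hashtag with 1 hashtag, so it carries a counting interval and no test. Of the 32 genes, 30 had at least 50 UMIs in both sums together, all but Hk2 and Pdk4. In chow, 0 of the 30 were past 1.2-fold and higher (3.97% of 15348 genes were) and 0 lower (7.02%), and 22 of them were lower with rapamycin, with a median log2 ratio of -0.06 against -0.03 for all genes. In DIO, 1 was past 1.2-fold and higher (13.3% of all genes) and 0 lower (5.65%), against 18.9% of all genes in either direction, with a median of 0.03 against 0.04. In OB, 4 were higher (12.1%) and 1 lower (10.1%), with a median of 0.07 against 0.03.

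**Figure D3:**
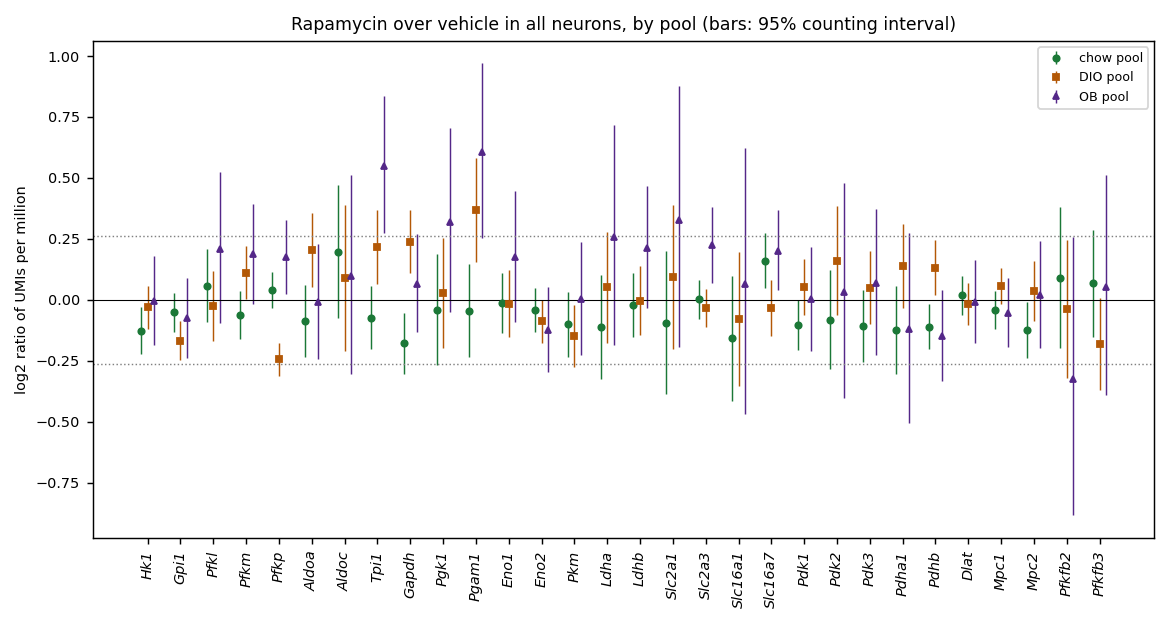
Log2 ratio of CPM, rapamycin over vehicle, in all neurons for the 30 genes with enough UMIs, by pool, with exact 95% counting intervals as bars and dotted lines at 1.2-fold. Most points lie between the dotted lines, and Tpi1 and Pgam1 in OB and Pgam1 in DIO lie above them with intervals that exclude 0.

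In OB, Pgam1 gave 0.60 (95% interval 0.25 to 0.97) and Tpi1 0.55 (0.27 to 0.83), and in DIO Pgam1 gave 0.37 (0.15 to 0.58). The other genes past 1.2-fold in OB were Pgk1 at 0.32, Slc2a1 at 0.33 and Pfkfb2 at -0.32, all with intervals that include 0. The OB vehicle sum, the thinnest, underlies all 5. With OB hashtags called by a ratio, 8 genes passed 1.2-fold, and with GABAergic and glutamatergic neurons weighted equally 12 did. Equal weighting averages the ratios of these classes only. It leaves out neurons outside both classes, which were 6356 of the 8055 neuronal nuclei of the OB pool. It also takes in genes under the minimum of UMIs within a class, such as Ldha on 4 UMIs in vehicle GABAergic neurons. The part of class shares among all neurons was not tested.

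The direction matched in all 3 pools for 4 of 30 genes, Aldoc (higher) and Hk1, Gpi1 and Eno2 (lower), where 23.0% of 13450 genes matched. Gpi1 stood at 79.9 CPM with rapamycin against 82.8 with vehicle (chow), 76.3 against 85.7 (DIO) and 69.97 against 73.7 (OB). Only the DIO interval excludes 0 (-0.17, -0.25 to -0.09). None of the 4 reached 1.2-fold in any pool.

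By transmitter class the sums are smaller and more genes of any kind pass 1.2-fold. In GABAergic neurons, 1 of 30 genes was higher (6.64% of all genes) and 1 lower (10.0%) in chow, and 4 of 30 were higher (14.3%) and 0 lower (7.06%) in DIO. In OB, 9 of 24 were higher (23.1%) and 0 lower (1270 of 8944 genes), and 37.3% of all genes passed in either direction. Of these 9, the interval excludes 0 for Tpi1, Pgam1 and Slc2a3 only. In glutamatergic neurons, 3 of 30 were higher (8.64%) and 6 lower (13.1%) in chow, and 2 of 29 higher (16.8%) and 4 lower (10.0%) in DIO, where 26.9% of all genes passed in either direction. In OB, 4 of 16 were higher (23.2%) and 6 lower (15.6%), and 38.8% of all genes passed in either direction.

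In astrocytes, 0 of 4 measured genes were higher (17.6%) and 1 lower (26.1%) in chow, and 0 of 3 higher (23.8%) and 1 lower (30.2%) in DIO. The OB pool held enough UMIs for 17 genes, of which 8 were higher (21.7%) and 5 lower (25.6%). Pfkp stood at 107.6 CPM with rapamycin and 62.6 with vehicle in OB, on 66 and 28 UMIs, a log2 ratio of 0.78 (0.12 to 1.48). It was the 1 gene of the 17 whose interval excludes 0. Aldoc gave 0.07 (-0.25 to 0.40) there and Ldhb -0.14 (-0.63 to 0.36).

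The pools were last compared with each other in vehicle neurons. Pool, library and mice cannot be told apart here. The OB matrix was also made with another Cell Ranger version (7.0.1 against 6.0.0) and another gene annotation (31053 against 27998 genes), per the file headers and feature lists. Both comparisons share the chow sum, so their values are given side by side. In DIO against chow, 2 of 30 genes were past 1.2-fold and higher (19.9% of 15452 genes) and 11 were lower (26.8%), with a median log2 ratio of -0.20 against -0.04 for all genes. In OB against chow, 6 were higher (20.2% of 14546 genes) and 8 lower (23.5%), with a median of -0.11 against -0.03. Among rapamycin nuclei of the same pools, 8 of 30 were higher (21.8% of 14904 genes) and 3 lower (16.4%), with a median of -0.01 against 0.01.

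**Figure D4:**
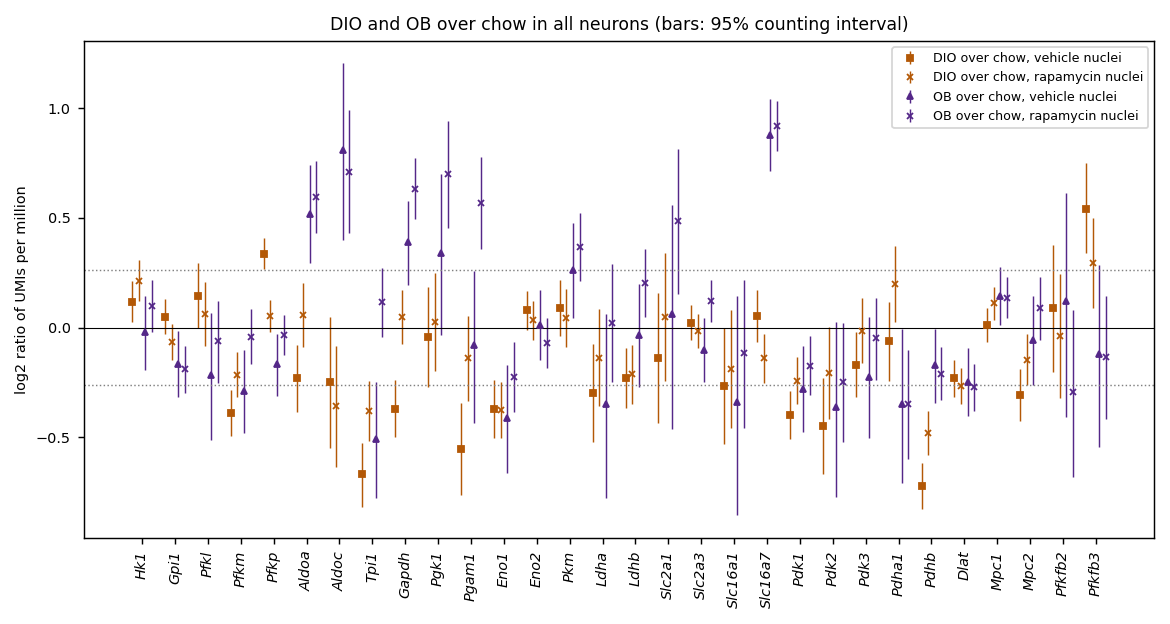
Log2 ratio of CPM in all neurons, DIO over chow (orange) and OB over chow (purple), among vehicle nuclei (filled) and rapamycin nuclei (crosses), with exact 95% counting intervals as bars and dotted lines at 1.2-fold. Pdhb and Tpi1 lie lower in DIO under both treatments, and Slc16a7, Aldoc, Aldoa and Gapdh lie higher in OB under both.

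The genes higher in DIO were a phosphofructokinase subunit and the enzyme that makes its activator. Pfkfb3 stood at 15.9 CPM against 10.9 in chow (log2 0.54, 0.34 to 0.75) and Pfkp at 118 against 93.8 (0.34, 0.27 to 0.41). Among rapamycin nuclei, Pfkfb3 gave 0.29 (0.09 to 0.50) and Pfkp 0.05.

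The genes lower in DIO included Pdhb, the beta subunit of E1 of pyruvate dehydrogenase, at 40.1 CPM against 66.2 (-0.72, -0.83 to -0.62), Tpi1 at 21.0 against 33.4 (-0.67) and Pgam1 at 10.4 against 15.3 (-0.55). They also included the kinases Pdk2 (-0.45) and Pdk1 (-0.40), Pfkm (-0.39), Eno1 (-0.37), Gapdh (-0.37), Mpc2 (-0.31), Ldha (-0.30) and Slc16a1 (-0.27), and their intervals exclude 0. Among rapamycin nuclei, 1 of 30 genes was higher (20.8% of 15582 genes) and 5 were lower (16.1%), with Pdhb at -0.48, Tpi1 at -0.38 and Eno1 at -0.37. There, Gapdh gave 0.05 and Pgam1 -0.14, both with intervals that include 0. With GABAergic and glutamatergic neurons weighted equally, and neurons outside both classes left out, Gapdh in vehicle neurons stood at -0.18.

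In OB the highest ratio was that of Slc16a7, a lactate carrier, at 71.1 CPM against 38.7 in chow vehicle neurons (0.88, 0.71 to 1.04). Among rapamycin nuclei it stood at 81.8 against 43.3 (0.92, 0.80 to 1.03), and all 4 chow and DIO sums lay between 38.7 and 43.3. In oligodendrocyte sums it ranged over 41.7, 80.1 and 191 CPM. Oligodendrocyte markers stood in the neuron sums at 91.8 and 97.7 CPM in OB, 55.7 and 56.5 in chow and 60.5 and 57.6 in DIO (rapamycin, then vehicle). Their part in the Slc16a7 result was not tested. Aldoa at 36.3 against 25.4 CPM (0.52) and Gapdh at 48.5 against 37.1 (0.39) were higher too, and gave 0.60 and 0.63 among rapamycin nuclei. With hashtags called by a ratio, Gapdh in vehicle neurons stood at 0.11. Aldoc, at 12.2 against 6.95 CPM (0.81, 0.40 to 1.204), stood at 0.10 with GABAergic and glutamatergic neurons weighted equally. That value leaves out neurons outside both classes, and it rests on 3 Aldoc UMIs in glutamatergic neurons of OB vehicle nuclei. The 12 astrocyte markers stood in the neuron sums at 56.6 and 79.3 CPM in OB, against 32.2 and 35.9 in chow and 39.2 and 43.6 in DIO (rapamycin, then vehicle), and their part in the Aldoc result was not tested. With rapamycin against vehicle the markers were lower in each pool, and Aldoc gave 0.20 (chow), 0.09 (DIO) and 0.10 (OB), all with intervals that include 0. That comparison is between treatments and not between pools. Tpi1 (-0.51), Eno1 (-0.41) and Pdha1 (-0.35) were lower in OB, and among rapamycin nuclei Tpi1 gave 0.12.

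Astrocytes of the OB and chow pools were compared for the few genes with enough UMIs. Among vehicle nuclei 5 of 7 were past 1.2-fold and higher in OB (29.3% of 2797 genes) and 0 lower (28.6%). Among rapamycin nuclei 7 of 12 were higher (30.4% of 3508 genes) and 0 lower (22.2%). The interval excludes 0 for Aldoc among vehicle nuclei, and for Aldoa, Aldoc, Gapdh and Ldhb among rapamycin nuclei. The OB sums were larger, so genes high in OB reached the minimum of UMIs more easily. Under it, among vehicle nuclei, the interval excludes 0 for Slc2a1 (1.26, higher in OB) and Pdk2 (-1.18, lower). The astrocyte sums of the pools also differed in other markers. Those of tanycytes and ependymal cells stood at 83.3 CPM in chow and 288 in OB, and those of oligodendrocytes at 57.3 and 231, and their part in the result was not tested.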

How the data were processed

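The authors deposited matrices of raw UMI counts for genes and hashtags, made with Cell Ranger 6.0.0 on mm10, per the submitters' processing notes. Per the file headers, OB was made with 7.0.1. Intron counting is not given in the sources used here. Genes were matched by Ensembl identifier. Nuclei with at least 500 UMIs, 300 genes and under 5% mitochondrial UMIs were kept (1 removed). Hashtags were called with HTODemux (Seurat 5.3.0, quantile 0.99). Doublets between hashtags (542, 450 and 622) were removed, and doublets within a hashtag cannot be seen.

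Neurons needed at least 5 UMIs of at least 3 of 7 markers, and over 2 times any other type's sum. Transmitter classes needed 2 UMIs and a ratio of 4, glia 5 UMIs, and peptide classes 5 UMIs of the gene. Counts were summed per hashtag and class. Tests used edgeR 4.0.16 (TMM, filterByExpr, quasi-likelihood; R 4.3.3), checked on simulated data. DESeq2 1.42.0 was an alternative. Comparisons of 1 sum with 1 sum give exact 95% intervals of counting error only, with a minimum of 50 UMIs in both sums together. For the peptide and histaminergic classes that minimum applied to the class alone, over all pools. UMIs were taken as independent, and variation between nuclei and mice is not covered. Genes past a test, the highest and lowest ratios and 1 gene or more per role were named. Members and lists were chosen with earlier results of these data known.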

Additional observations from a re-analysis of the deposited data

Results flagged for a closer look

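The rapamycin ratios of the 32 genes were compared between every pair of pools. For 3 genes they lay on opposite sides of 0 in 2 pools, with counting intervals that exclude 0. The intervals cover counting error only. The share of all genes that do so was not counted, and the differences were not tested over mice. Gapdh was lower with rapamycin in chow (log2 ratio -0.18, 95% interval -0.30 to -0.05) and higher in DIO (0.24, 0.11 to 0.37), a difference of 0.42. Pfkp was lower in DIO (-0.24, -0.31 to -0.18) and higher in OB (0.17, 0.02 to 0.33), also a difference of 0.42. Pdhb was lower in chow (-0.11, -0.20 to -0.02) and higher in DIO (0.13, 0.02 to 0.24), a difference of 0.24. With equal weights for GABAergic and glutamatergic neurons, and neurons outside both classes left out, Gapdh in chow stood at 0.04 and Pfkp in DIO at -0.16.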

How the results depend on the processing

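Of 101 values that answer a comparison under an alternative, 92 kept within the limits set for them and 9 moved past them. Most of these values are counts of genes, which can move but have no direction, so a reversal could not show in them. Leaving out a pool called 0 to 1 genes between glutamatergic and GABAergic neurons, and the tag ratio called 1. Genes past 1.2-fold with rapamycin numbered 1 in chow with equal class weights and 1 with a minimum of 10 UMIs. In DIO they numbered 2 with TMM scaling, 2 with thinned sums and 2 with a minimum of 10 UMIs. In OB they numbered 8 with the tag ratio and 12 with equal class weights. The cause of these moves was not tested. Equal class weights cover GABAergic and glutamatergic neurons only and leave out neurons outside both classes. The rapamycin fits had the pool as their block. The class fits had each hashtag of a pool as their block or, as an alternative, 1 pair per pool. No further paired fit was made. Depth limits the astrocyte and OB vehicle sums most, and the fits treat the pools as replicates, which they are only for what chow, DIO and OB mice share.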
